A study of Mus musculus with 50 samples.

Results

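Ducts of DN-Clim mammary glands at 4 weeks were compared with ducts of wild-type (WT) glands of the same age. The comparison used 3 DN-Clim and 3 WT arrays, chosen by genotype, structure and age in their sample titles out of 50 arrays in the series. All 6 came from CB6F1 mice in early puberty and are labelled as biological replicates, and the stated difference between the groups is the transgene. DN-Clim mice express a dominant-negative Clim, made of the LIM interaction domain with a nuclear localization signal and a Myc tag, under the keratin 14 promoter, which is active in the basal cells of the duct and not in its luminal cells. A captured duct holds both layers, so the arrays mix cells that carry the transgene with cells that do not. Cells were cut from stained frozen sections of the gland with a laser, and each RNA sample was hybridized to 1 Affymetrix gene array. Mice of one age came from a shared litter, so a difference between ages and one between litters cannot be told apart. Read beside this comparison were terminal end buds (TEBs, the growing tips of the ducts) at 4 weeks, on 3 arrays per genotype, ducts at 6, 8 and 10 weeks, on 15 arrays, and basal and luminal cells sorted at 10 weeks, on 8 arrays. The labels of 2 of the later WT duct arrays, replicate 2 at 8 weeks and replicate 2 at 10 weeks, name both duct and TEB. They were taken as duct, and the results at later ages are also given without them.

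Clims, also known as LDB or NLI proteins, do not bind DNA themselves. They dimerize and bind the LIM domains of LIM-homeodomain and LIM-only factors, and through GATA, bHLH and other partners they bring distant regulatory regions to promoters. A protein with the LIM interaction domain alone occupies the LIM factors without joining these complexes. In the pubertal gland the duct has an inner luminal layer and an outer basal layer of contractile myoepithelial cells, among which the basal stem cells lie.

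The values are intensities per probe set, computed by the authors with PLIER on a linear scale. Values were taken to log2, probe sets that reached 200 on none of the 42 laser capture arrays were left out, and the probe set with the highest mean stood for each gene, which gave 13362 genes. The median intensity lay between 187 and 219 on the 6 arrays. Pearson correlations over genes were 0.969 to 0.985 among WT arrays, 0.961 to 0.979 among DN-Clim arrays and 0.954 to 0.978 between the groups, ranges that overlap. The number of arrays limits the precision, and the median standard error of a log2 difference was 0.124.

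Both duct layers were present on every array. The basal keratins Krt14 and Krt5 had mean intensities of 1857 ± 120 and 2209 ± 172 in WT ducts (SD, n = 3) and 1952 ± 181 and 2294 ± 460 in DN-Clim ducts (SD, n = 3). The luminal keratins Krt8 and Krt18 measured 9942 ± 1644 and 7362 ± 594 in WT and 9258 ± 2118 and 7395 ± 738 in DN-Clim ducts. Over 28 basal and myoepithelial genes the summed intensity was 52839 to 58829 on the WT arrays and 49584 to 54386 on the DN-Clim arrays, and over 19 luminal genes it was 49542 to 58639 and 47605 to 58715. Ldb1, which encodes Clim2, measured 3783, 3883 and 3441 in WT ducts and 4107, 3933 and 3832 in DN-Clim ducts (log2 difference 0.10, standard error 0.09, adjusted p = 0.718 from limma). The sources used here do not say whether its probe set covers the part carried by the transgene, so Ldb1 does not check the labels, and no other probe set does.

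Between DN-Clim and WT ducts at 4 weeks, 6 genes passed the test, 4 of them higher and 2 lower. They are 0.0449% of the 13362 genes tested, 0.0299% higher and 0.015% lower (limma with a variance trend, Benjamini-Hochberg adjusted p under 0.05). Goosecoid (Gsc), R3hdml, Dscam and Edar were higher in DN-Clim ducts, by 1.92-fold to 5.45-fold, and Igfbp2 and Cxcl14 were lower, by 2.65-fold and 2.08-fold. All WT values of Gsc, Dscam and Edar in ducts at 4 weeks were under the expression limit of 200, and no detection call is given. These 3 folds are thus ratios of measured intensities over a WT level not shown to be above background. In WT TEBs at 4 weeks Edar was just above the limit, at 206 to 212. Here and below a gene is said to pass where limma's adjusted p was under 0.05, and calls by another test are named as such. At an unadjusted p under 0.05 there were 1363 genes, 10.2% of those tested, with 860 higher and 503 lower. In captured tissue, fewer cells of a type and less RNA per cell cannot be told apart.

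The start regions of the 3 genes that also passed the same test in TEBs at 4 weeks are printed here so that they can be read against what Clim partners bind. Each runs 5′ to 3′ from 250 bases before to 50 bases after a RefSeq start on GRCm38.p6. Gsc is on the minus strand at chr12:104473187-104473486, R3hdml on the plus strand at chr2:163492068-163492367, and Igfbp2 on the plus strand at chr1:72824230-72824529. Capitals mark the E-box CANNTG, the site of bHLH factors.
Gsc: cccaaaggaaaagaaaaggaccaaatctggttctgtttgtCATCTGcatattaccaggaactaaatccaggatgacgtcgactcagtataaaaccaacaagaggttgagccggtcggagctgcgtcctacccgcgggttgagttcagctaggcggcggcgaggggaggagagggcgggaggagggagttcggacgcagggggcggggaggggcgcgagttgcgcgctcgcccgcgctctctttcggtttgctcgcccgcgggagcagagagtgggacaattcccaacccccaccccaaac
R3hdml: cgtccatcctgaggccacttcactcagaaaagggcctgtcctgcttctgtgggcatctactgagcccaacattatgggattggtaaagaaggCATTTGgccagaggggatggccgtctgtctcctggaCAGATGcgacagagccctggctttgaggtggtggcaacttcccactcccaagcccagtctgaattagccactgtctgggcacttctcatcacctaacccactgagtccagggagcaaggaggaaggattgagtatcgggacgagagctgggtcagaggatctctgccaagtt
Igfbp2: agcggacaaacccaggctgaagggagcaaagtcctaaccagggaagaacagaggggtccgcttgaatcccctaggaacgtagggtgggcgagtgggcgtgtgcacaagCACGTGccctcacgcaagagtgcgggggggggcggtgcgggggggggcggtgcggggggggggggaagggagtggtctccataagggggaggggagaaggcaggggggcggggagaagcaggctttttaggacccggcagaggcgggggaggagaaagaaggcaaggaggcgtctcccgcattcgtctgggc
RefSeq gives 7 start regions for the 6 genes that passed, since Igfbp2 has a pair of them. An E-box lay in 5 of these 7, as in 72.3% of the 32851 mouse start regions of the same length. The LIM-homeodomain core TAATTA, present in 5.29% of all start regions, and the GATA forms AGATAA and TGATAA, present in 11.2% and 9.05%, were found in none of the 7 on either strand. These are matches of letters, and no binding was measured.

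Gsc encodes a homeobox transcription factor of the early embryonic organizer. Its intensity was 105, 118 and 118 on the WT arrays and 371, 334 and 369 on the DN-Clim arrays, so the groups were far apart and the replicates close together. The log2 difference was 1.66 (standard error 0.12, adjusted p = 0.00153 from limma), a ratio of 3.15 in measured intensity. No WT array of Gsc in the series reached the limit, so the gene entered the test only through DN-Clim arrays, and the ratio is not one of known expression levels.
R3hdml encodes an R3H domain-like protein of the CAP family. It measured 327, 418 and 412 in WT ducts and 1514, 1765 and 2731 in DN-Clim ducts. The lowest DN-Clim value was well above the highest WT value (log2 difference 2.34, standard error 0.20, adjusted p = 0.00244).
Dscam, a cell adhesion molecule of the immunoglobulin family known from neurons, measured 115, 77.2 and 76.3 in WT ducts and 359, 765 and 401 in DN-Clim ducts. It had the largest log2 increase of all genes tested, and its DN-Clim values spread more than its WT values (log2 difference 2.45, standard error 0.27, adjusted p = 0.0156).
Edar, the receptor for ectodysplasin in skin appendage and mammary placode development, measured 132, 120 and 127 in WT ducts and 252, 237 and 239 in DN-Clim ducts. Its increase was the smallest of the 4, and the replicates lay close together in both groups (log2 difference 0.94, standard error 0.13, adjusted p = 0.0478). It lay close to the threshold, and its adjusted p was above 0.05 under 12 of 17 other settings of the limma analysis.

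The 2 genes that fell encode secreted factors, and both stand on the list of basal and myoepithelial genes. Igfbp2, a binding protein that holds insulin-like growth factors, measured 494, 590 and 682 in WT ducts and 250, 214 and 200 in DN-Clim ducts. Every DN-Clim array was below every WT array (log2 difference −1.41, standard error 0.14, adjusted p = 0.00863). Cxcl14, a chemokine of epithelia, measured 2629, 2183 and 2184 in WT and 1308, 1005 and 1063 in DN-Clim ducts (log2 difference −1.06, standard error 0.13, adjusted p = 0.0211). Gsc and R3hdml passed under all 17 other settings, and each of the other 4 failed under at least 4 of them.

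**Figure D1:**
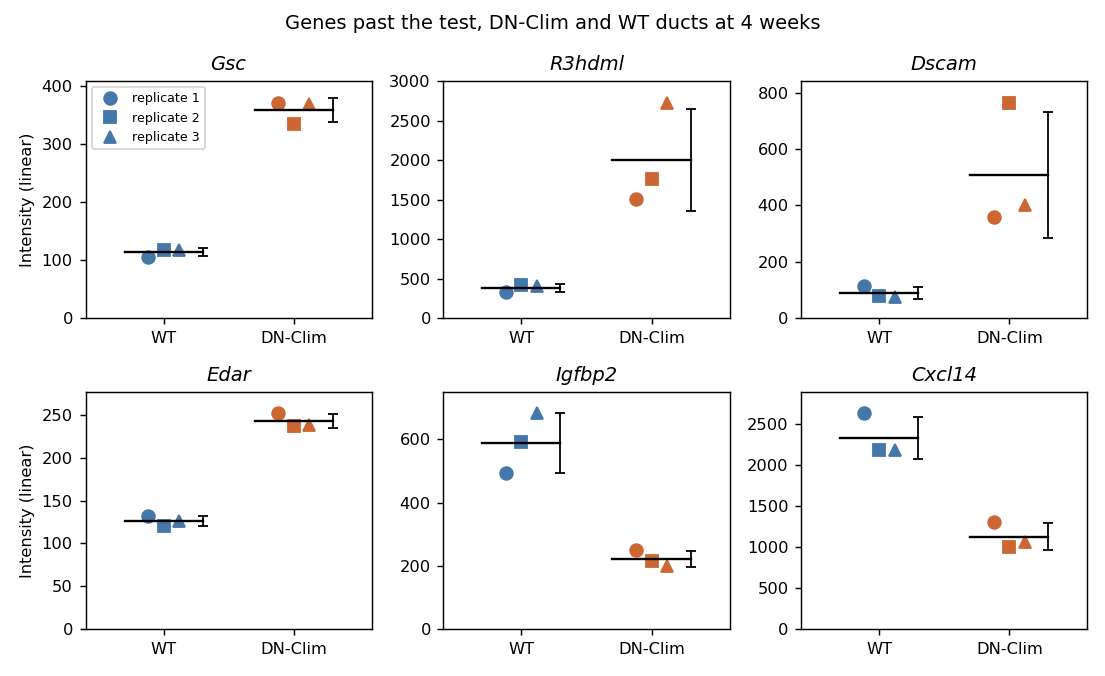
Intensity (linear scale, vertical axis from 0) of the 6 genes that passed the test, in WT and DN-Clim ducts at 4 weeks, with 1 point per array (shape gives the replicate number), the mean as a line and the standard deviation as a bar. The 3 DN-Clim arrays lie above the 3 WT arrays for Gsc, R3hdml, Dscam and Edar and below them for Igfbp2 and Cxcl14.

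How many genes were called depended on the test. Cyber-T, the regularized test used by the study, called 106 genes at an adjusted p under 0.05 (0.793% of those tested, 54 higher and 52 lower), and these included all 6. A rule with no adjustment, p under 0.01 with a 1.5-fold change, took 123 genes with limma (0.921%, 62 higher and 61 lower) and 185 with Cyber-T. Leaving out DN-Clim replicate 1 raised the limma count to 41, again with all 6, and leaving out WT replicate 3 lowered it to 3. Over all genes, DN-Clim arrays were above the WT arrays without overlap in 10.6% and below them in 5.05%.

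**Figure D2:**
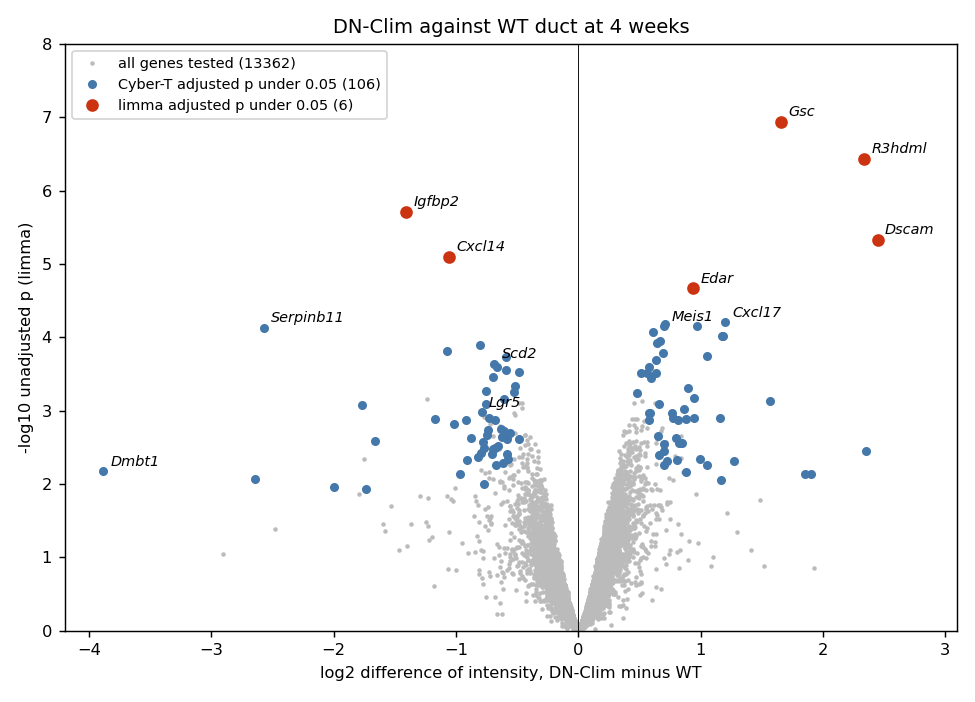
Each point is 1 of 13362 genes, with the log2 difference of DN-Clim minus WT ducts at 4 weeks on the horizontal axis and −log10 of limma's unadjusted p on the vertical axis. The 6 genes past limma's adjusted test are red and the other genes among the 106 past Cyber-T's adjusted test are blue; Dmbt1, far to the left, did not pass limma's test.

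The next genes by unadjusted p had groups that did not overlap but missed the adjusted threshold. Among those with higher means were Cxcl17, a mucosal chemokine (218 ± 13.7 in WT and 514 ± 147 in DN-Clim ducts, SD, n = 3), Ltbp2, a matrix protein of elastic fibers (815 ± 63.2 and 1336 ± 128), Zim1, an imprinted zinc finger gene (379 ± 74.9 and 732 ± 43.6), Meis1, a homeobox cofactor of Hox proteins (603 ± 40.9 and 982 ± 90.7), Itgb4, an integrin subunit of hemidesmosomes (1075 ± 22.6 and 1645 ± 128), and Atp2a3, a calcium pump of the endoplasmic reticulum (215 ± 57.9 and 476 ± 52.4). Their adjusted p-values lay between 0.0895 and 0.0927 with limma. When all 21 duct arrays shared 1 model, Meis1 (adjusted p = 0.00923) and Itgb4 (adjusted p = 0.0239) passed at 4 weeks, beside Gsc, R3hdml and Igfbp2.
Among those with lower means, Serpinb11, a serpin, measured 324, 269 and 493 in WT ducts and 120, 48.6 and 35.2 in DN-Clim ducts (log2 difference −2.57, standard error 0.40, adjusted p = 0.0895). Il17b, an interleukin, had means of 1243 ± 90.8 and 718 ± 128, and Kcnmb1, a potassium channel subunit of smooth muscle, 410 ± 106 and 192 ± 26.4. Muc15, a membrane mucin, Scd2, a fatty acid desaturase, and the tetraspanin Cd81 completed the list with 1700084J12Rik and Mir692-1, at adjusted p-values of 0.117 to 0.138. Mir692-1 is named as the array annotation gives it, and its mature microRNA was not measured.
The largest decrease of all was that of Dmbt1, a secreted scavenger receptor of mucosa. It measured 366, 418 and 1468 in WT ducts and 400, 18.2 and 9.59 in DN-Clim ducts, so the groups overlapped and 1 DN-Clim array was at the WT level (log2 difference −3.88, adjusted p = 0.369 from limma and 0.0249 from Cyber-T). It was named after its values were seen.

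Of the Clims and their partners, 21 of 30 were measured and none passed the test in either direction. The median log2 difference of the 21 was 0.02, as over all genes tested. Ldb2, which encodes Clim1, measured 404, 558 and 396 in WT and 571, 550 and 509 in DN-Clim ducts (log2 difference 0.28, standard error 0.14, adjusted p = 0.533). Lmo4, a LIM-only factor known in breast epithelium, was the only member at an unadjusted p under 0.05. Its values of 2456, 2376 and 2857 in WT and 2071, 1998 and 1886 in DN-Clim ducts did not overlap (log2 difference −0.36, standard error 0.10, adjusted p = 0.329). Gata3, a GATA factor of luminal cells, had a difference of −0.17, and the single-stranded DNA binding partners Ssbp2 and Ssbp3 of 0.17 and −0.15.

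The lists were chosen with earlier results of these data known, so the shares given here and below describe their members and are not tests. The basal and myoepithelial list was the one list of 32 that held called genes, Cxcl14 and Igfbp2, 2 of its 28 measured members (7.14% against 0.0449% of all genes) and both lower. It held 8 members at an unadjusted p under 0.05, or 28.6% against 10.2% of all genes, and its median was −0.03. The members went both ways. Cyber-T called 14.3% of the list against 0.793% of all genes, with 1 higher (Itgb4) and 3 lower (Cxcl14, Igfbp2 and Oxtr). The oxytocin receptor Oxtr, through which myoepithelial cells contract, measured 1974, 1479 and 1900 in WT and 1203, 1008 and 1367 in DN-Clim ducts without overlap (log2 difference −0.58, adjusted p = 0.291 from limma and 0.0386 from Cyber-T). The contractile genes Acta2 and Cnn1 had differences of −0.24 and −0.30 at unadjusted p of 0.0241 and 0.0279. Itgb4 had a difference of 0.61, and Trp63, the p63 factor of basal cells, one of 0.25 at an unadjusted p of 0.0345. Neither Krt14 nor Krt5 differed by more than its standard error.
Basal stem cell genes were followed because the transgene acts in the layer that holds these cells. None of 33 measured genes passed. Lgr5, a receptor for R-spondins and a stem cell marker, measured 923, 941 and 715 in WT and 618, 387 and 501 in DN-Clim ducts, without overlap. Its log2 difference of −0.79 (standard error 0.17) had an adjusted p of 0.251 from limma and 0.0155 from Cyber-T. Lgr5 was the only member that Cyber-T called, 3.03% of the list against 0.793% of all genes. Cd44 had a difference of 0.50 at an unadjusted p of 0.0041.
Of 19 luminal genes none passed with limma and 1, Sorbs2, with Cyber-T (5.26% against 0.793% of all genes). Sorbs2, an adaptor of the cytoskeleton, had the highest difference, 0.52, with 1145, 1094 and 1023 in WT and 1485, 1652 and 1528 in DN-Clim ducts (adjusted p = 0.138 from limma and 0.0155 from Cyber-T). Prom1 had the lowest difference, −0.82 (adjusted p = 0.427 from limma), and the median of the luminal list was 0.03. Of 14 hormone-sensing genes none passed, and 28.6% were at an unadjusted p under 0.05, against 10.2% of all genes. Of these, 1 was higher, the estrogen receptor Esr1 with a difference of 0.29, and 3 were lower. The lower ones were Cxcl15 (−1.53), Prom1 (−0.82) and Tnfsf11 (−0.36). Of 19 genes of milk and alveolar progenitors none passed with limma. The caseins Csn3 and Csn1s1 were called by Cyber-T (2 of 19 members), at differences of −0.63 and −2.64. Csn3 did not overlap between groups, at 6952, 5983 and 6299 in WT and 3570, 3696 and 5364 in DN-Clim ducts, while Csn1s1 was low and ranged over 97, 194 and 531 in WT and 139, 20.5 and 14.4 in DN-Clim ducts. Of 34 genes of the cornified epidermis none passed, and their median was −0.01.

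Genes of fatty acid and sterol synthesis had the lowest median of all lists, which were chosen with earlier results of these data known. Of 23 measured, 22 had lower means in DN-Clim ducts, as had 5914 of all 13362 genes. The median log2 difference of the list was −0.33 against 0.02 over all genes, and 13 of the 23 were at an unadjusted p under 0.05 (56.5% against 10.2%). None passed limma's adjusted test. Cyber-T called 4 of them, Thrsp, Insig1, Scd2 and Acly (17.4% against 0.793% of all genes). Thrsp, a regulator of lipogenesis, measured 2998, 3884 and 5005 in WT and 2856, 1850 and 2180 in DN-Clim ducts. In basal and luminal cells sorted at 10 weeks Thrsp did not reach 150 on any of the 8 arrays, while Acly, Insig1 and Scd2 did. Acly, which makes acetyl-CoA from citrate, measured 2905, 3432 and 4812 in WT and 2638, 1958 and 2242 in DN-Clim ducts, and Insig1, a sterol sensor, 1121, 1270 and 1787 and 949, 680 and 920. The groups did not overlap in these genes, though WT replicate 1 and DN-Clim replicate 1 came near each other.
Fasn, the fatty acid synthase, had the same order, with 7990, 8429 and 10611 against 7970, 5895 and 5432 (log2 difference −0.50, standard error 0.15, adjusted p = 0.374). The summed intensity of the list was 51637, 53083 and 69457 on the WT arrays and 49486, 39944 and 40996 on the DN-Clim arrays. Without WT replicate 3, 7 members were at an unadjusted p under 0.05, and also without DN-Clim replicate 2. The number with lower means stayed at 21 to 23 of 23 when any 1 array was left out, and at 22 or 23 under 3 other scalings of the arrays.
Fat cells lie next to the ducts and also use these genes. Of 17 markers of fat cells, 15 had lower means (5914 of all 13362 genes), with a median of −0.15. The summed intensity of these markers was 57772, 56778 and 67384 on the WT arrays and 58532, 54091 and 52183 on the DN-Clim arrays. As in the lipid list, WT replicate 3 was the highest array and DN-Clim replicate 1 the highest of the DN-Clim arrays. Adipoq, Plin1 and Fabp4 had differences of −0.04, −0.10 and −0.05. Other members had larger ones, with −0.49 for Dgat2, the last step of triglyceride synthesis, −0.41 for Slc2a4, the insulin-sensitive glucose transporter, −0.40 for Lep, −0.29 for Pparg and −1.47 for Cidea. None of the 17 passed with limma. Cyber-T called Dgat2 (adjusted p = 0.0435), whose groups did not overlap, or 5.88% of the list against 0.793% of all genes. After quantile normalization 11 of the 17 had lower means. Their part in the lipid genes was not tested.

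**Figure D3:**
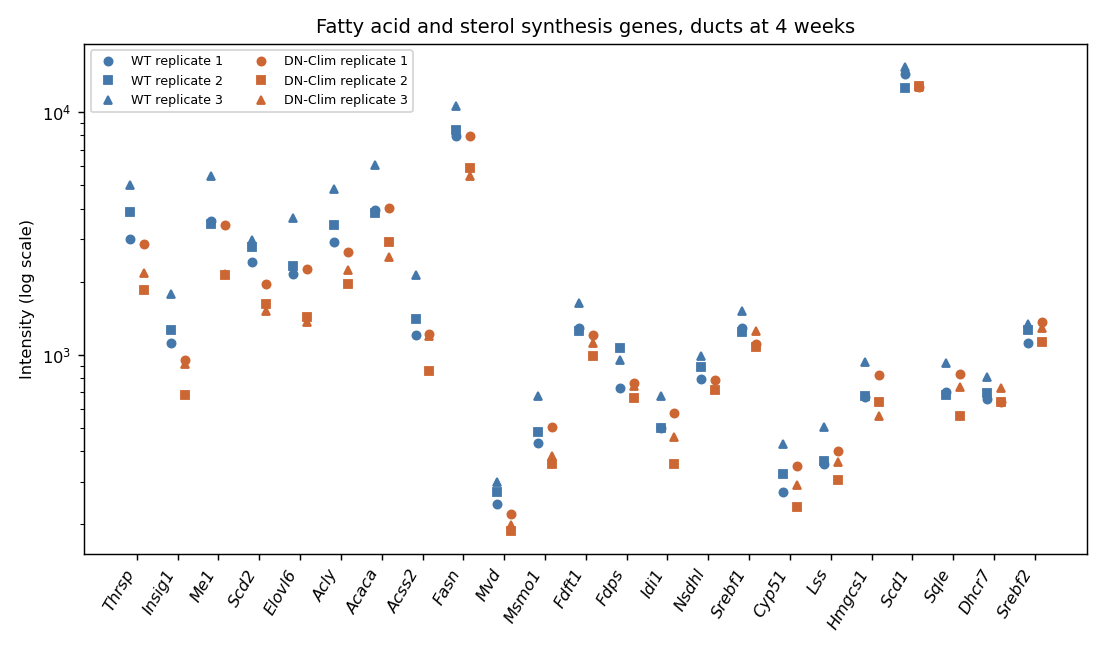
Intensity (log scale) of 23 genes of fatty acid and sterol synthesis in ducts at 4 weeks, ordered by log2 difference, with 1 point per array (colour gives the genotype and shape the replicate number). DN-Clim points lie lower in most genes, DN-Clim replicate 1 is nearest to the WT arrays, and WT replicate 3 is highest.

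Genes of the cell cycle had the highest median. Of 56 measured, 50 had higher means in DN-Clim ducts (89.3% against 55.7% of all genes), with a median of 0.18. None passed, and 3 were at an unadjusted p under 0.05 (5.36% against 10.2%). Mki67, a marker of dividing cells, measured 1448, 1130 and 1746 in WT and 1394, 1744 and 2241 in DN-Clim ducts. The pattern depended on single arrays. Without DN-Clim replicate 3, 36 of the 56 had higher means and the median was 0.03, and without DN-Clim replicate 1, 21 were at an unadjusted p under 0.05. Of 30 genes of ribosome biogenesis none passed, with a median of 0.08.
Among signaling genes, none of the Wnt ligands (13 measured), receptors (23) and inhibitors (14) passed with limma. The secreted Wnt inhibitors Sfrp1 and Sfrp2 had higher means without overlap, and Cyber-T called both (14.3% of the inhibitors against 0.793% of all genes). Sfrp2 measured 982, 1307 and 1036 in WT and 1761, 1679 and 1691 in DN-Clim ducts (log2 difference 0.64, adjusted p = 0.138 from limma and 0.011 from Cyber-T), and Sfrp1 a difference of 0.58 (adjusted p = 0.251 and 0.0276). Wif1, another secreted inhibitor, measured 432, 274 and 300 in WT and 266, 228 and 418 in DN-Clim ducts, which overlap (log2 difference −0.16, standard error 0.23, adjusted p = 0.841). Lrp5, a Wnt co-receptor, had a difference of 0.34 and Rnf43, which removes Wnt receptors, one of 0.37.
In the FGF pathway none of 24 passed. Fgfr2, a receptor of the growing duct, measured 4616, 3189 and 4255 in WT and 3989, 2555 and 2603 in DN-Clim ducts (log2 difference −0.41, standard error 0.19, adjusted p = 0.493), with overlap. Sulf1, which trims heparan sulfate, had a difference of 0.57 (adjusted p = 0.138 from limma and 0.0386 from Cyber-T). It was the only member that Cyber-T called, 4.17% of the list against 0.793% of all genes. In the ErbB pathway none of 16 passed, and Erbb2 and Erbb3 had differences of 0.10 and 0.00 with standard errors of 0.11 each. Erbb3 changed sign when the arrays were centred on their median.
Of 21 metalloproteases and their inhibitors none passed with limma. Cyber-T called the stromelysin Mmp3 (higher) and the inhibitors Timp3 (higher) and Timp1 (lower), 14.3% of the list against 0.793% of all genes. Mmp3 measured 440, 651 and 408 in WT and 761, 866 and 1264 in DN-Clim ducts (log2 difference 0.94, standard error 0.21, adjusted p = 0.251 from limma and 0.00719 from Cyber-T). Of 14 imprinted growth genes none passed with limma, and Cyber-T called Zim1 and Igf2, 14.3% of the list against 0.793%. Igf2, a fetal growth factor, measured 238, 277 and 259 in WT and 376, 450 and 423 in DN-Clim ducts (log2 difference 0.69, adjusted p = 0.115). Among 29 immediate-early and heat shock genes, Jun was the one called by Cyber-T (3.45% against 0.793% of all genes). Jun measured 1508, 1619 and 1409 in WT and 2101, 2477 and 2502 in DN-Clim ducts.

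Among markers of other cells, all 12 measured skeletal muscle genes had lower means in DN-Clim ducts (5914 of all 13362 genes). Their median log2 difference was −0.25. Their summed intensity was 2012 to 2241 on the WT arrays and 1676 to 1788 on the DN-Clim arrays, without overlap. Mean log2 intensity over the 12 genes was 7.16 to 7.32 on the WT arrays and 6.95 to 7.03 on the DN-Clim arrays. These means lie under log2 of the expression limit of 200, so the list as a whole is not shown to be above background. Acta1, the actin of skeletal muscle, had means of 571 ± 71.1 and 398 ± 38.0 (SD, n = 3; adjusted p = 0.289 from limma). Of 19 endothelial markers 17 had higher means (89.5% against 55.7% of all genes), with a median of 0.13. Their sums were 10098 to 12005 in WT and 10793 to 14119 in DN-Clim ducts. Fibroblast matrix genes (22 measured) had a median of 0.01 and macrophage genes (18) of 0.02. In DN-Clim replicate 2, Glycam1, known from milk and from the vessels of lymph nodes, measured 6243, against 94.3 to 165 on the other 5 arrays. The sum over 14 lymphocyte genes was 3966 on that array, against 2512 to 2697 on the others. Without that array Gsc, R3hdml and Dscam passed, and Igfbp2 (adjusted p = 0.0824), Cxcl14 and Edar did not. Interferon genes (21 measured) had a median of −0.16 and were highest on WT replicate 1. None of these lists held a gene that passed.

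**Figure D4:**
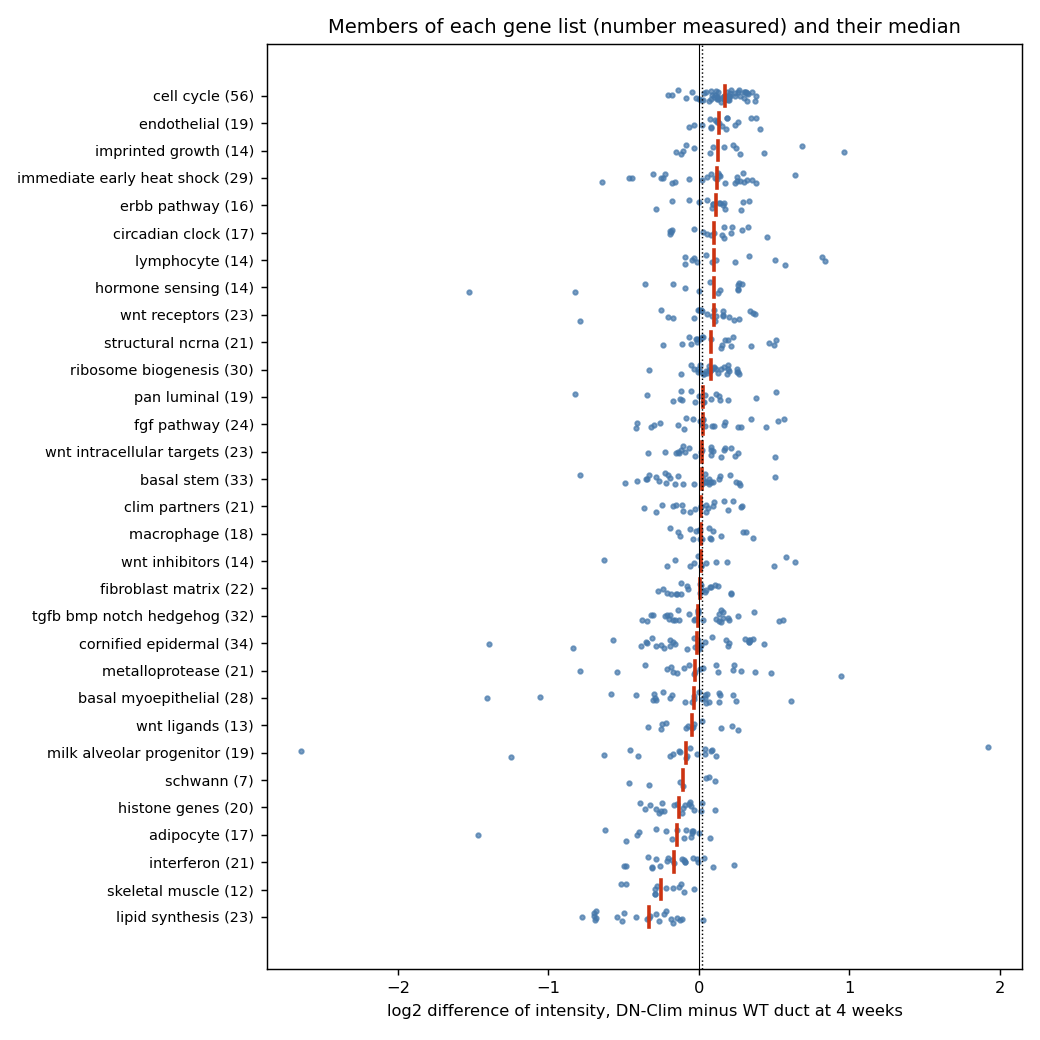
Log2 difference of DN-Clim minus WT ducts at 4 weeks for the members of each list with at least 7 measured genes (points, number in parentheses), with the list's median as a red bar, 0 as a solid line and the median of all genes, 0.02, as a dotted line. Lipid synthesis lies lowest, at −0.33, and the cell cycle highest, at 0.18.

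To see whether the differences in the duct at 4 weeks were also present in the growing tips, the same genes were read in TEBs of the same age. TEB and duct arrays with the same number deviated from their group means together (r = 0.429 to 0.652 over genes), so they may come from the same mice and are not independent. In TEBs, 5 genes passed (0.0374%), among them Gsc, R3hdml and Igfbp2, with log2 differences of 1.76 (standard error 0.13), 2.32 (0.25) and −0.95 (0.13). The remaining calls in TEBs were Sfrp2 (0.96, adjusted p = 0.0361 from limma) and Fmo2 (−0.79, adjusted p = 0.0383), which did not pass in ducts. The other 3 of the 6 duct genes had TEB differences of 1.14 for Dscam, 0.56 for Edar and −0.61 for Cxcl14, with adjusted p-values of 0.381, 0.203 and 0.28. No gene passed the test of the difference between the effects in duct and TEB with limma (0%, 505 at an unadjusted p under 0.05), also with the arrays of the same number as a block. The largest such differences among the 6 were 1.31 for Dscam (standard error 0.61) and −0.46 for Igfbp2 (standard error 0.18).

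At later ages, which used other mice, the 6 genes kept their direction at 6 and 8 weeks, and all but Dscam at 10 weeks. The tests at 6, 8 and 10 weeks called 0.0898%, 3.73% and 0.0374% of genes. Without the 2 WT arrays of doubtful label, an alternative added after seeing the data, each of 8 and 10 weeks keeps 1 WT array, assumed to vary like the other groups. The counts were then 16, 19 and 18 genes in place of 12, 498 and 5, and the 6 genes kept the directions given here. Over all genes tested, 32.9% kept the sign of the 4-week difference at all 3 later ages. Gsc differed by 1.44, 1.12 and 1.13 at 6, 8 and 10 weeks and passed at each age (adjusted p = 0.0016, 0.00378 and 0.0327), but not at 10 weeks without the doubtful arrays (0.85, adjusted p = 0.286). R3hdml differed by 2.57, 3.52 and 0.88 and passed at 6 and 8 weeks (adjusted p = 0.000506, 4.5e-06 and 0.127), also without those arrays. Its DN-Clim mean stayed between 1519 and 2294 at these ages while its WT mean went from 388 at 6 weeks to 141 at 8 weeks and 823 at 10 weeks. Cxcl14 differed by −0.47, −1.15 and −1.11 and passed at 8 weeks (adjusted p = 0.449, 0.0145 and 0.062), but not without those arrays (adjusted p = 0.167 at 8 weeks).
Igfbp2 differed by −0.57, −0.42 and −0.50 and Edar by 0.37, 0.24 and 0.36, and neither passed at a later age. In WT ducts Igfbp2 had means of 589 at 4 weeks, 497 at 6, 318 at 8 and 355 at 10 weeks, while in DN-Clim ducts it lay between 221 and 334. Dscam differed by 1.98, 3.07 and −0.98, with standard errors of 0.85, since its values ranged widely within groups. None of the 6 passed the test of the 4-week difference against the mean of the later ages. That difference was −0.91 for Igfbp2 (standard error 0.25, adjusted p = 0.231) and 0.62 for Edar (standard error 0.22, adjusted p = 0.371); without the 2 WT arrays of doubtful label the adjusted p-values were 0.51 and 0.689.
One gene of 13362 (0.00748%) passed that test, Mmp3, which differed by 0.94 at 4 weeks and by −0.22, −1.48 and −0.63 at 6, 8 and 10 weeks (difference 1.72, standard error 0.24, adjusted p = 0.0224). Without the WT arrays at 8 and 10 weeks whose labels name both duct and TEB, its adjusted p was 0.0521, and it did not pass when WT replicate 1 or 3 or DN-Clim replicate 2 or 3 was left out. Wif1, nearly equal at 4 weeks, differed by −1.49, −1.33 and −1.06 later. It passed at 8 weeks with all arrays (adjusted p = 0.0264) and at 6 weeks without the doubtful ones (adjusted p = 0.0498; 0.118 at 8 weeks), and the change from 4 weeks did not pass (adjusted p = 0.265).

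**Figure D5:**
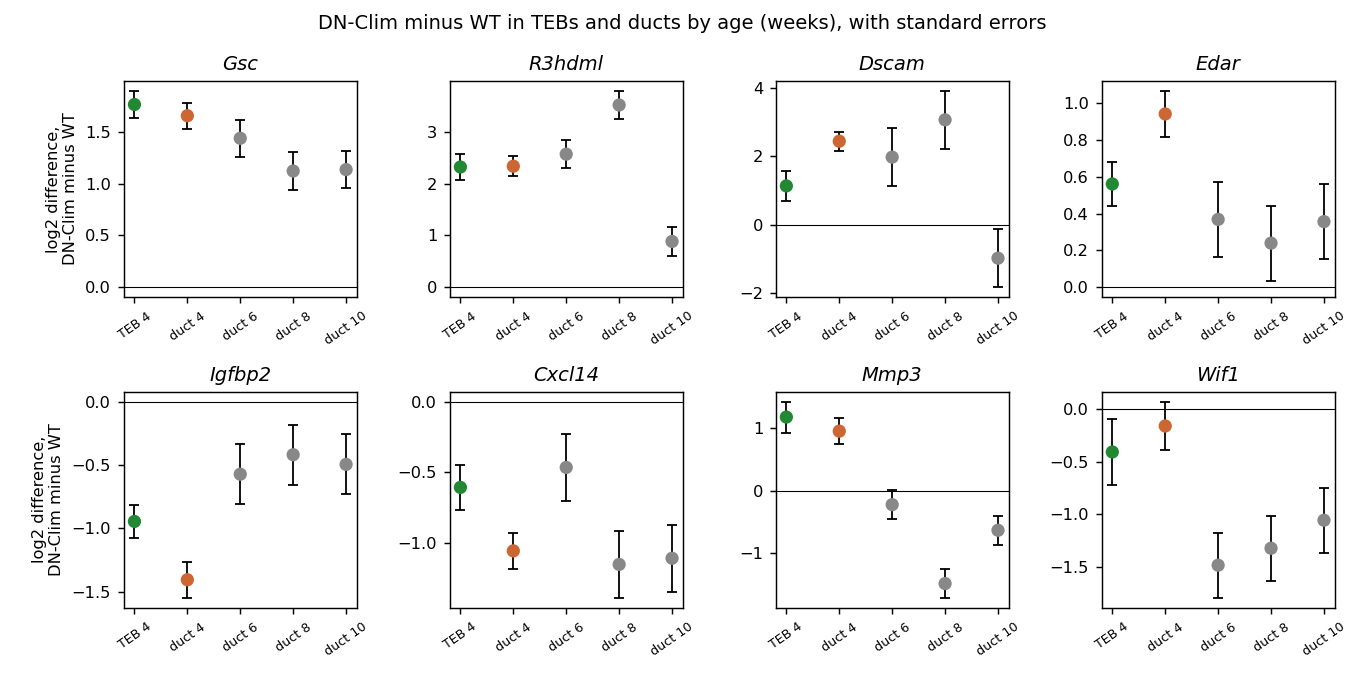
Log2 difference of DN-Clim minus WT (vertical axis) with its standard error in TEBs at 4 weeks (green), in ducts at 4 weeks (orange) and in ducts at 6, 8 and 10 weeks (grey), for the 6 genes that passed at 4 weeks and for Mmp3 and Wif1. Gsc stays between 1.12 and 1.76, and Mmp3 is above 0 at 4 weeks and below 0 at the later ages.

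Sorted cells of 10-week glands show in which layer each gene is found, on 2 arrays per group and with no test. The titles of the luminal arrays repeat the basal gate while their descriptions give the luminal one, and they were taken as luminal. In WT glands, 11.5% of 12043 genes were basal-higher and 10.4% luminal-higher, meaning arrays that do not overlap and a log2 difference of at least 1. Igfbp2, Cxcl14 and Edar were basal-higher, and R3hdml and Dscam were luminal-higher. Igfbp2 had means of 1514 ± 615 in basal and 97.6 ± 1.01 in luminal cells (SD, n = 2), and Cxcl14 of 5234 ± 667 and 42.2 ± 11.8. R3hdml had means of 20.4 ± 1.11 in basal and 1457 ± 95.1 in luminal cells. The 6 genes of the duct thus included genes of either layer of the WT gland.
Gsc was under 150 in both WT layers, at 108 ± 4.34 and 100.2 ± 7.65. In DN-Clim glands it measured 425 ± 129 in basal and 186 ± 8.74 in luminal cells, differences of 1.94 and 0.89. R3hdml measured 221 ± 257 in DN-Clim basal and 3143 ± 1920 in DN-Clim luminal cells, where the duplicates were far apart. Igfbp2 was not lower in DN-Clim basal cells at 10 weeks, with 2389 ± 1137. Of the 10 genes with the smallest p among those with lower means at 4 weeks, 5 were basal-higher and 1 luminal-higher. Of the 10 with higher means, 9 were measured in sorted cells, 3 of them basal-higher and 5 luminal-higher.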

How the data were processed

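Laser-captured ducts of WT and DN-Clim mice at 4 weeks were measured on 3 arrays each. The authors deposited intensities from PLIER; its version was not stated in the paper or labels. The study went on to log2, mean centring and unit variance, a step the deposited linear values do not carry, and it was tried here as an alternative on arrays. Of 35557 probe sets in the table, 21789 have 1 gene symbol, 1621 several and 12147 none, and genes were named from the first kind. Values under 1 were set to 1, log2 was taken and, as in the study, probe sets that reached 200 on none of 42 laser capture arrays were dropped, leaving 22693. No other normalization was applied. Groups were fitted with limma 3.58.1 in R 4.3.3 (lmFit, eBayes with trend) and adjusted by Benjamini-Hochberg over 13362 genes. The difference between duct and TEB used 12 arrays, and that between 4 weeks and the mean of 6, 8 and 10 weeks used 21. Sorted cells were kept at 150 or more and not tested. Cyber-T (window 101, confidence 10) was rebuilt here from its published form. Scripts were tested on simulated data.

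Genes named are the 10 with the smallest unadjusted p in each direction, the Clims and partners, the genes the paper names for DN-Clim glands, list members past the test, and examples chosen after their values were seen. Members and lists were chosen with earlier results of these data known. Symbols follow the platform annotation, updated through RefSeq (GRCm38.p6). WT and DN-Clim arrays of the same number correlated at −0.284, −0.193 and −0.114 in their deviations from the group means, so the numbers do not pair them. Alternatives covered scaling, floor, filter, variance trend, a block and each array left out. Cyber-T counts under other settings and single later ages without 2 arrays of doubtful label were added after the data were seen. The PLIER intensities carry no read depth.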

Additional observations from a re-analysis of the deposited data

Results flagged for a closer look

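Mmp3, the stromelysin, was the one gene whose DN-Clim effect in ducts differed between 4 weeks and the later ages by a test of the difference itself, by 1.72 on the log2 scale (standard error 0.24, adjusted p = 0.0224 from limma). Its log2 difference was 0.94 at 4 weeks, −0.22 at 6, −1.48 at 8 and −0.63 at 10 weeks, and 1.17 in TEBs at 4 weeks. Without the 2 WT arrays at 8 and 10 weeks whose labels name both duct and TEB, the difference was 1.68 with an adjusted p of 0.0521, and Mmp3 at 8 weeks had −1.46 with an adjusted p of 0.0767 in place of 0.00367. Each age is a litter of its own, so the ages and the litters cannot be told apart. In basal and luminal cells sorted at 10 weeks, Mmp3 did not reach 150 on any array, and which captured cells held it was not tested.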

How the results depend on the processing

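In limma, 6 genes passed, 4 higher and 2 lower. Counts stayed at 5 or 6 under other scalings, floors, pseudocounts and filters on genes. With every probe set kept, 2 passed (2 higher, 0 lower). Without the variance trend and with all 21 duct arrays in 1 model, 1 lower gene passed. WT and DN-Clim arrays of the same number are not said to be paired. With the number as a replicate block 3 passed, 2 higher and 1 lower (Cxcl14, Gsc and R3hdml). Leaving out 1 array gave 3 to 41 genes, 2 to 20 higher and 0 to 21 lower. The lowest count came without WT replicate 3 and the highest without DN-Clim replicate 1. Cyber-T called 106 (54 higher, 52 lower). The unadjusted rule took 123 with limma (62 and 61) and 185 with Cyber-T (88 and 97). Cyber-T counts, chosen after seeing the data, were 90 without a filter, 119 after quantile normalization and between these under the other 2 settings run, and 26 to 628 with 1 array left out.

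No gene passed the difference between duct and TEB in limma under any setting run, the TEB and duct block included. For the difference from later ages, where Mmp3 passed, leaving out 1 array gave 0 to 3 genes, with 0 without WT replicate 1 or 3 or DN-Clim replicate 2 or 3. The block by age and number gave 1, and leaving out the 2 WT arrays of doubtful label gave 2 (Acta1 and Tnnt3). At single ages, leaving those arrays out (chosen after seeing the data) took the count at 8 weeks from 498 to 19, and Gsc at 10 weeks, Cxcl14 at 8 weeks, Wif1 at 8 weeks and Mmp3 at 8 weeks no longer passed. Blocks changed no other call of these differences.

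Signs turned only in differences near 0. The R3hdml difference between duct and TEB was −0.011 with a common mean and variance, −0.023 after quantile normalization and −0.23 to 0.19 with 1 array left out. Its difference from later ages was −0.0084 with a common mean and variance and −0.23 to 0.19 with 1 array left out. After centring on the median, Erbb3 was −0.033 and Krt18 −0.031. With 1 array left out, Erbb3 ranged from −0.11 to 0.086, Wif1 from −0.42 to 0.037, Krt5 from −0.12 to 0.15, Krt8 from −0.29 to 0.036 and Krt18 from −0.049 to 0.089.

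Gsc and R3hdml had adjusted p-values up to 0.0244 and 0.0247 over 17 settings, and Igfbp2, Cxcl14, Edar and Dscam up to 0.0824, 0.152, 0.269 and 0.354. The cause was not tested. With 3 arrays per group the number of arrays limits what could be called.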

Other observations

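The 106 genes called by Cyber-T included several with known roles in glycogen or sugar metabolism, picked here after their values were seen and with no test of the group. None passed with limma. Pygl, the liver glycogen phosphorylase, measured 1041, 1317 and 1899 in WT and 1026, 707 and 656 in DN-Clim ducts. Ppp1r3c and Ppp1r3b, subunits that bring a phosphatase to glycogen, had log2 differences of −0.92 and −0.75, without overlap. Mlxipl, the carbohydrate response factor ChREBP, had a difference of −0.67 with groups that overlapped. Fbp1, an enzyme of gluconeogenesis, went the other way, with 112, 94.1 and 79.8 in WT and 151, 345 and 422 in DN-Clim ducts (log2 difference 1.57, adjusted p = 0.00572 from Cyber-T). Angptl8, a secreted regulator of lipids, had a difference of −1.01.

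Other genes from the same Cyber-T calls had higher means, again picked after their values were seen. Hgf, a growth factor for epithelia, measured 383, 329 and 338 in WT and 546, 559 and 479 in DN-Clim ducts, and Cxcl12, a chemokine, 644, 735 and 635 and 1008, 1056 and 932. Chrdl1, a BMP antagonist, had a log2 difference of 0.90 and Fndc1 one of 1.18. Reln, which encodes reelin, had lower values, with 954, 603 and 1088 in WT and 562, 255 and 139 in DN-Clim ducts.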
